A study of Mus musculus with 28 samples.

Results

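The 7 mature mouse miRNAs described here are mmu-miR-122-5p, mmu-miR-122-3p, mmu-miR-192-5p, mmu-miR-194-5p, mmu-miR-148a-3p, mmu-miR-148b-3p and mmu-miR-152-3p, written without the prefix from here on. They were chosen by name, as miRNAs that are enriched in liver together with the miR-148 and miR-152 family, and they are 7 of 1966 miRNAs and of 80668 small noncoding RNAs in the deposited tables. The libraries came from blood of 14 untreated female wild-type mice of the inbred strain C57BL/6N, with 3 mice aged 2 months, 4 aged 6 months, 3 aged 8 months, 2 aged 12 months and 2 aged 18 months. Each mouse gave 1 small RNA library of a pellet enriched in extracellular vesicles (EVs) and 1 of the EV-depleted fluid that was left after ultracentrifugation, called plasma here, which makes 28 libraries. The comparisons asked how each miRNA varied with age and between the fractions, and all groups share the strain, sex and genotype. The plasma labels of replicates 2 and 3 at 2 months do not separate these mice, so their pairing with an EV library rests on the replicate number.

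MiRNAs are short RNAs that guide Argonaute proteins to messenger RNAs, mostly through the seed, bases 2 to 8 of the mature strand, and lower the output of those messenger RNAs. MiR-122 is the predominant miRNA of hepatocytes, takes part in the control of lipid metabolism, and is widely measured in blood as a marker of liver injury. MiR-192 and miR-194 are made from shared primary transcripts in liver, gut and kidney epithelium, and the miR-148 and miR-152 family, of which miR-148a is abundant in liver, acts among other targets on DNA methyltransferases and on the uptake of low-density lipoprotein.

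Of the 7 miRNAs, 5 were matched by name in RefSeq (GRCm38.p6), and miR-122-5p and miR-122-3p were not. The mature strands are given because the seed sets which members can be compared as a family and because reads of near-identical strands can be confused. Seed bases are in capitals. MiR-215-5p is added since it is the only other miRNA of the RefSeq table with the seed of miR-192-5p.
miR-192-5p: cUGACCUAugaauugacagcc
miR-215-5p: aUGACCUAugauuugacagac
miR-194-5p: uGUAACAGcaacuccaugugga
miR-148a-3p: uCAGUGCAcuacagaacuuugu
miR-148b-3p: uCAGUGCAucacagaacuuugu
miR-152-3p: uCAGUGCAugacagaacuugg

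MiR-148a-3p, miR-148b-3p and miR-152-3p share 1 seed, and no other miRNA of the table has it. Counted from the 5′ end, miR-148b-3p differs from miR-148a-3p by C9U and U10C, which leaves 20 of 22 bases alike. MiR-152-3p differs from miR-148a-3p by C9U, U10G and U20G over its 21 bases. MiR-215-5p differs from miR-192-5p by C1A, A12U and C20A, so that 18 of 21 bases are alike. No source used here says how reads that match several RNAs were counted, and levels of these close relatives carry that uncertainty. MiR-194-5p has no relative by seed in the table, but its strand comes from 2 hairpins, and it is the 1 member whose counts were not whole in every library.

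On GRCm38, Mir192 lies at chr19:6264844-6264932 on the plus strand, 115 bases after Mir194-2 at chr19:6264643-6264728. Mir194-1 at chr1:185313319-185313385 and Mir215 at chr1:185313581-185313692 form the paralogous pair, 195 bases apart. In GENCODE M21 the pair on chromosome 1 lies within the long noncoding gene 2010103J01Rik, with Mir215 in an exon of it, and antisense to the protein-coding gene Iars2, and the pair on chromosome 19 overlaps no other annotated gene. Mir148a at chr6:51269812-51269910 on the minus strand overlaps no other gene. Mir148b at chr15:103285125-103285221 and Mir152 at chr11:96850393-96850465 lie in introns of Copz1 and Copz2, the paralogous genes for the zeta subunit of the coatomer of COPI vesicles, on the strand of the host.

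Plasma libraries held 928651 to 23905651 counts, 4977 to 82646 of them from miRNAs, and EV libraries held 4764338 to 52753818 counts, 20063 to 203624 of them from miRNAs. Counts were scaled with TMM and set relative to all miRNA counts of a library as CPM, the level meant below unless RPM, the authors' scaling, is named. Counts were not divided by length, and the 5 members matched in RefSeq are 21 or 22 bases long. No source used here names molecular identifiers, and intervals for shares of counts therefore cover counting error only. A level in plasma or in the pellet cannot tell fewer vesicles or other carriers from less of a miRNA per carrier. Markers of blood cells were present in every library: summed red cell miRNAs, 6 of 6 with reads, took 90810 to 402800 CPM in EVs and 121300 to 392800 CPM in plasma, platelet miRNAs (4 of 4) 38980 to 130100 and 29340 to 104400 CPM, and lymphocyte miRNAs (4 of 4) 22170 to 42730 and 18900 to 36220 CPM. The gut and kidney epithelium list (6 of 6) took 3497 to 9008 CPM in EVs and 2579 to 8735 CPM in plasma, the muscle and heart list (6 of 6) 99.7 to 857 and 290.5 to 1018 CPM, and the pancreas list 0 to 643 CPM with 4 of 4 detected in EVs and 140.3 to 494 CPM with 3 of 4 in plasma, where miR-217-5p was at 0. In each fraction, 3 of the 4 pancreas miRNAs and 2 of the 6 muscle and heart miRNAs averaged under 1 count a library.

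**Figure D1:**
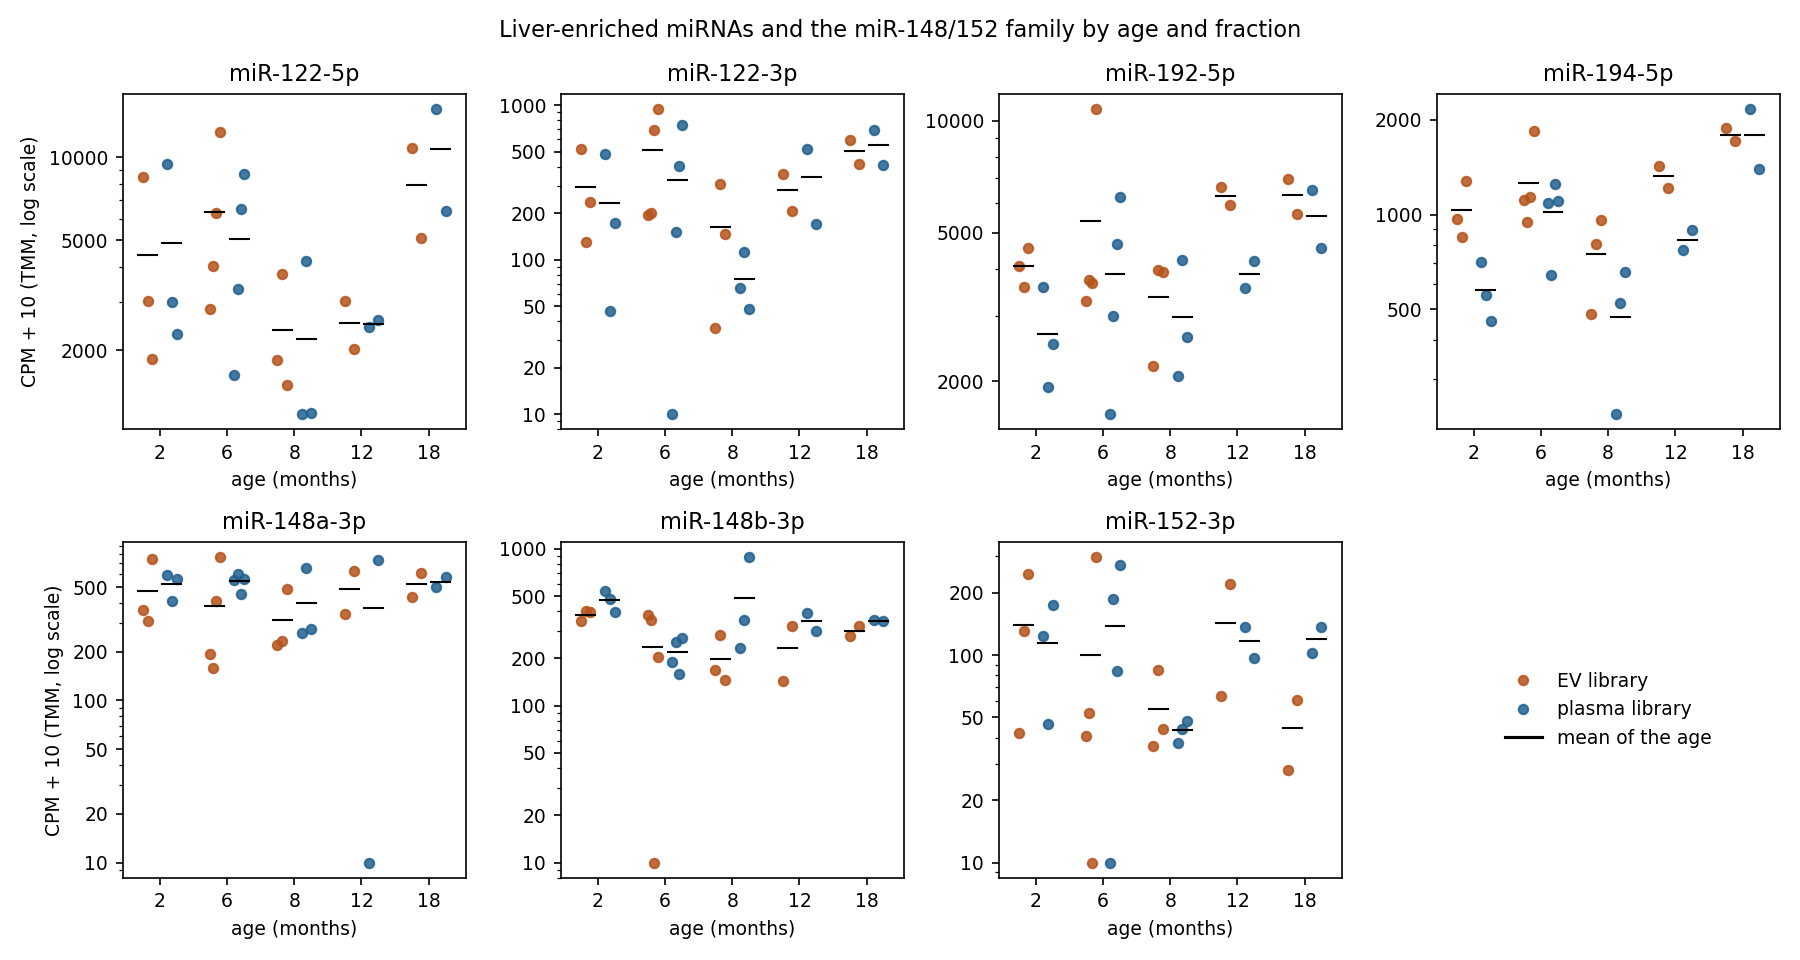
Level of each miRNA (TMM-scaled CPM plus 10, log axis) against age in months, 1 point per library, with EV libraries in orange, plasma libraries in blue and a bar at the mean of each age; points at 10 have no counts. MiR-122-5p spread widely within ages, both 18-month plasma libraries (1389 and 2161 CPM) lay above all other plasma libraries for miR-194-5p, and the miR-148 and miR-152 family lay below 900 CPM.

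MiR-122-5p varied widely between mice in both fractions, a mouse kept a like level in its EVs and its plasma, and neither fraction nor age passed the test. Its mean was 4768 ± 3468 CPM (SD, n = 14) in EVs and 4842 ± 3978 CPM (SD, n = 14) in plasma. Ranked by mean RPM, miR-122-5p took place 40 of 307 miRNAs tested in EVs and place 36 of 304 in plasma. It had 44 to 1077 counts in an EV library and 9 to 663 in a plasma library. The SD of its log2 CPM was 0.98 in EVs and 1.14 in plasma, against a median of 0.60 in both fractions over the 228 and 176 miRNAs that averaged at least 10 counts.

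In EVs, miR-122-5p stood at 8452, 3000 and 1846 CPM in the 3 mice of 2 months, 2814, 4031, 6263 and 12310 CPM at 6 months, 1841, 3762 and 1490 CPM at 8 months, 3003 and 2017 CPM at 12 months and 10813 and 5114 CPM at 18 months. In plasma of the same mice, in the same order, it stood at 9450, 2978 and 2285 CPM, at 1622, 3333, 6504 and 8720 CPM, at 1165, 4212 and 1178 CPM, at 2410 and 2556 CPM and at 15001 and 6375 CPM. The median was 3382 CPM in EVs and 3155.5 CPM in plasma. Replicate 1 at 2 months, replicates 2 to 4 at 6 months and replicate 2 at 8 months lay above the median of each fraction. So did both mice of 18 months. Replicates 2 and 3 at 2 months, 1 at 6 months, 1 and 3 at 8 months and both mice of 12 months lay below it in each. Ordered by their means, the ages ran from 8 through 12, 2 and 6 to 18 months in both fractions, and every neighbouring pair in this order overlapped.

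A mouse that was high for miR-122-5p in EVs was high in plasma. Over the 14 mice, Spearman's rho between the fractions was 0.947 for miR-122-5p, tied at place 2.5 of 278 miRNAs tested in both fractions, whose median rho was 0.332. With any 1 mouse left out, rho lay between 0.934 and 0.962. Taken as deviations from the mean of each age and fraction on the log2 scale, which removes age, Pearson's r was 0.944, place 4 of 278, against a median of 0.297. MiR-122-3p had a rho of 0.877, miR-194-5p of 0.763 and miR-192-5p of 0.697, while miR-152-3p, miR-148b-3p and miR-148a-3p had 0.437, 0.191 and 0.134. With RPM, rho was 0.824 for miR-122-5p, 0.903 for miR-122-3p, 0.780 for miR-192-5p and 0.648 for miR-194-5p, against a median of 0.389. MiR-152-3p and miR-148b-3p then had 0.574 and 0.552, above that median, and miR-148a-3p had 0.319, so the gap to these members depends on the scaling. These 3 also had few counts in a plasma library, at most 10, 37 and 50 in the same order. The part of counting noise in their rho was not tested. All these correlations were computed after the levels had been seen and are given as a description, since both libraries of a point share the animal and its blood sample.

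**Figure D2:**
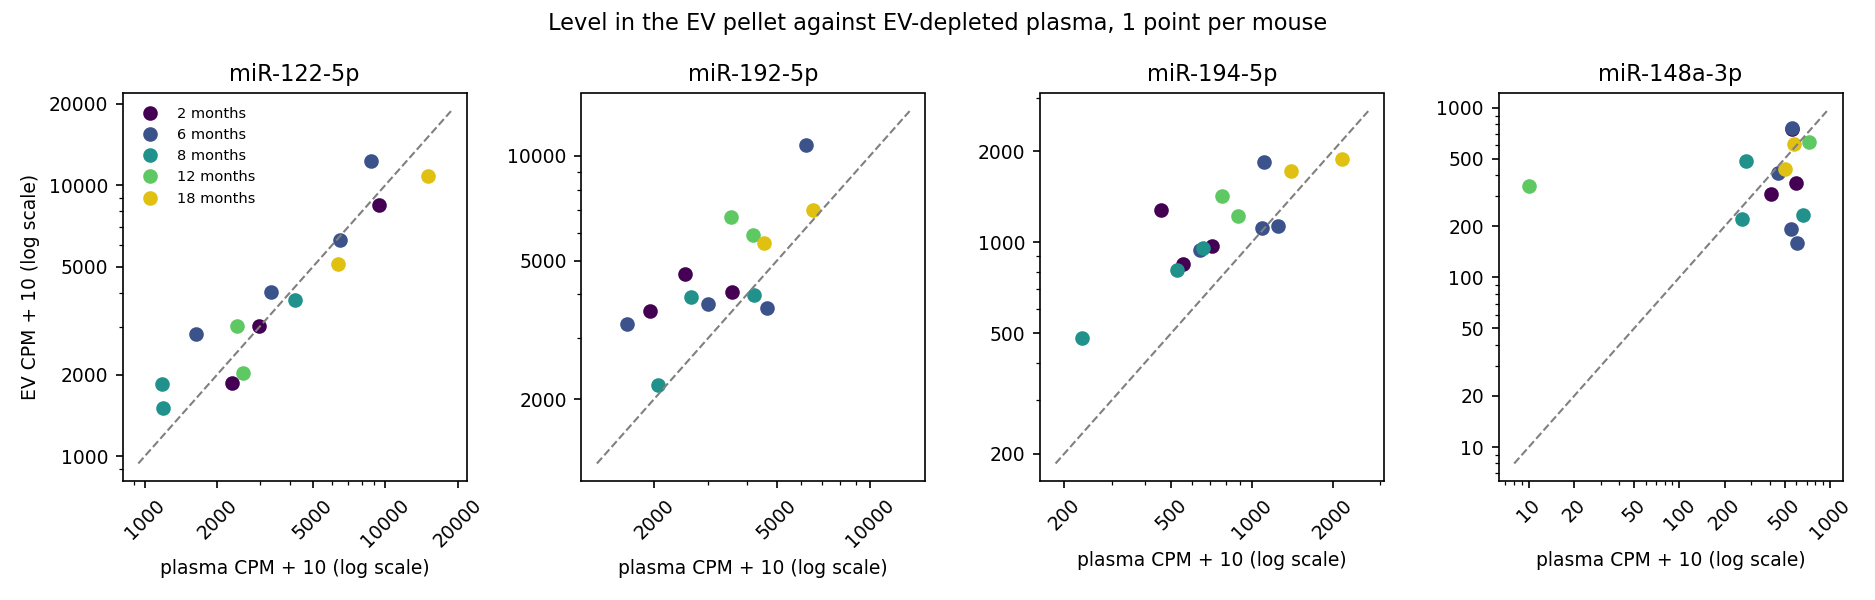
Level in the EV pellet (vertical) against plasma (horizontal), as TMM-scaled CPM plus 10 on log axes, for 4 miRNAs with 1 point per mouse coloured by age and a dashed line of equal levels. Points of miR-122-5p follow the line (rho 0.947), those of miR-192-5p and miR-194-5p lie mostly above it (12 of 14 mice each), and miR-148a-3p shows no such order (rho 0.134).

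Between the fractions, miR-122-5p was higher in EVs in 7 of 14 mice, and the log2 difference within a mouse ran from -0.47 to 0.79. In edgeR's quasi-likelihood fit with age as a covariate, it differed by -0.01 on the log2 scale (EVs over plasma, standard error 0.35, p adjusted by Benjamini-Hochberg over 333 miRNAs = 0.992), with a 95% interval of the fold from 0.613 to 1.60. The sign of this value was positive with DESeq2, its size factors, RPM scaling or the block by mouse. None of the 7 members passed this test, and 61 of 333 miRNAs did (18.3%), 8.11% of the 333 higher and 10.2% lower in EVs. At any p, 3 of 7 members and 53.2% of all miRNAs had a positive value. Of the 7, miR-152-3p passed the filter on low values through EVs alone and the other 6 passed it in each fraction.

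MiR-122-3p, the passenger strand of the same hairpin, was far less abundant, with 346 ± 254 CPM in EVs and 277 ± 249 CPM in plasma (SD, n = 14). Its counts ran from 1 to 82 in EV libraries and from 0 to 33 in plasma libraries, so single libraries say little. Pooled over the 14 libraries, it made up 322 of 4606 counts of both arms in EVs, 6.99% (exact binomial 95% interval 6.27% to 7.77%), and 5.26% of 2891 in plasma (4.47% to 6.13%). By library the share ran from 1.41% to 10.8% in EVs and from 0% to 17.4% in plasma. The intervals leave out this spread between mice and cannot compare the fractions. It was higher in EVs in 11 of 14 mice, and its log2 fold change was 0.29 (standard error 0.40, adjusted p = 0.663 from edgeR).

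The age trend of miR-122-5p was not told from 0 in either fraction. On the log2 scale it was 0.037 per month in EVs (standard error 0.043, adjusted p = 0.677 from edgeR over 307 miRNAs) and 0.050 per month in plasma (standard error 0.041, adjusted p = 0.60 over 304 miRNAs). Without both mice of 18 months the sign turned, to -0.12 and -0.13 per month. The values of miR-122-3p were 0.030 in EVs and 0.053 in plasma (standard errors 0.048 and 0.052), which turned to -0.052 and -0.049 without the same mice. The test of any difference among the 5 ages gave miR-122-5p an adjusted p of 0.341 in EVs and 0.130 in plasma with edgeR. When miRNAs with low counts were kept, it was 0.00808 in EVs and 8.89e-05 in plasma. In that setting 19 of 1556 miRNAs passed in EVs and 35 of 1498 in plasma. Over all alternatives the adjusted p of miR-122-5p ran from 0.00808 to 0.623 in EVs and from 8.89e-05 to 0.469 in plasma. Summed red cell miRNAs ran against miR-122-5p over the 14 EV libraries (rho -0.618), less so in plasma (rho -0.248), and were highest on average at 2 months (332100 CPM in EVs, 326200 CPM in plasma). Their part in the levels of miR-122-5p was not tested.

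MiR-192-5p and miR-194-5p leaned toward EVs in most mice, and the lean passed the threshold once each mouse was compared with itself. MiR-192-5p averaged 4916 ± 2158 CPM in EVs and 3653 ± 1510 CPM in plasma, and miR-194-5p 1177 ± 409 CPM and 879 ± 492 CPM (SD, n = 14). Each was higher in EVs in 12 of 14 mice, and by RPM miR-192-5p was higher in 9 and miR-194-5p in 13. The log2 fold changes of EVs over plasma were 0.43 (standard error 0.20) and 0.48 (standard error 0.21), with adjusted p = 0.114 and 0.104 from edgeR with age as a covariate. MiR-192-5p had 83 to 1150 counts in an EV library and 9 to 290 in a plasma library. MiR-194-5p had 18.5 to 235 counts in an EV library and only 6 to 70.5 in a plasma library.

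MiR-192-5p in EVs stood at 4066, 3570 and 4552 CPM at 2 months, 3273, 3734, 3654 and 10755 CPM at 6 months, 2183, 3961 and 3927 CPM at 8 months, 6646 and 5917 CPM at 12 months and 6983 and 5601 CPM at 18 months. In plasma it stood at 3563, 1925 and 2509 CPM, at 1622, 2982, 4649 and 6214 CPM, at 2052, 4212 and 2621 CPM, at 3551 and 4188 CPM and at 6513 and 4544 CPM. Both EV libraries of 12 months lay above both plasma libraries, the lowest EV library of 2 months lay just above the highest plasma library of that age, and at the other ages the fractions overlapped.

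MiR-194-5p in EVs stood at 960, 840.1 and 1272 CPM at 2 months, 1101, 933, 1124 and 1829 CPM at 6 months, 473, 797 and 948 CPM at 8 months, 1415 and 1209 CPM at 12 months and 1870 and 1705 CPM at 18 months. In plasma it stood at 698, 545 and 449 CPM, at 1081, 632, 1237 and 1097 CPM, at 222, 514 and 646 CPM, at 761 and 881 CPM and at 2161 and 1389 CPM. At 2 and 12 months every EV library lay above every plasma library, and at the other ages the fractions overlapped.

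Since both fractions came from the same animal, the block by mouse compares them within a mouse. With it, miR-192-5p was higher in EVs by 0.41 (standard error 0.11, adjusted p = 0.00405 from edgeR) and miR-194-5p by 0.51 (standard error 0.13, adjusted p = 0.00518) on the log2 scale. These were 2 of 7 members higher in EVs, beside 88 of 333 miRNAs that passed with the same block (26.4%), 40 of them higher (12%). Without the uncertain pairs of 2 months the block gave 0.34 and 0.41 (adjusted p = 0.0265 and 0.0245). Over all alternatives the adjusted p ran from 0.00405 to 0.203 for miR-192-5p and from 0.00518 to 0.179 for miR-194-5p, and both stayed positive. RPM scaling gave 0.75 for each, while it shifted the median difference over all miRNAs from 0.02 to 0.28 on the log2 scale. The other 5 members did not pass with the block, and miR-122-5p had 0.02 (standard error 0.10, adjusted p = 0.904).

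**Figure D3:**
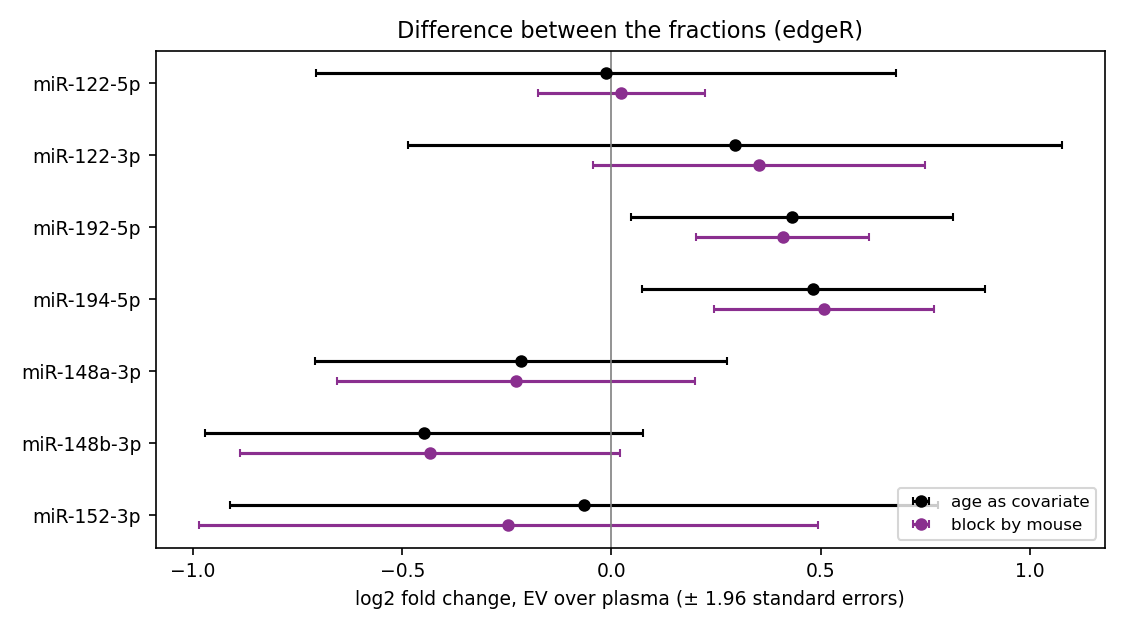
Log2 fold change of EVs over plasma from edgeR for the 7 members (points with 95% bars), with age as a covariate (black) and with a block by mouse (purple). Blocking narrows the bar of miR-122-5p around 0 (0.02, standard error 0.10), and the bars of miR-192-5p (0.41) and miR-194-5p (0.51) lie above 0.

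With all mice, miR-194-5p had the steepest positive age trend among the members in each fraction, and the trend passed the threshold in neither. Without the 18-month mice its slopes were 0.012 in EVs and 0.023 in plasma, below those of miR-192-5p (0.039 and 0.038). Its log2 change was 0.055 per month in EVs (standard error 0.025, adjusted p = 0.389 from edgeR) and 0.083 per month in plasma (standard error 0.031, adjusted p = 0.194), against medians of all miRNAs of 0.0014 and -0.0020. MiR-192-5p had 0.047 (standard error 0.028, adjusted p = 0.480) and 0.052 (standard error 0.027, adjusted p = 0.372). None of 7 members passed in EVs, where 1 of 307 miRNAs did (0.326%), and none of the 6 tested in plasma, where 0 of 304 did with edgeR, 47 at an unadjusted p under 0.05 (15.5%) and 2 with DESeq2. In EVs, 37 miRNAs (12.1%) had an unadjusted p under 0.05. Slopes were positive for 5 of 7 members in EVs and 4 of 6 in plasma, beside 51.1% and 48.4% of all miRNAs. RPM scaling moved the median slope of all miRNAs in EVs to 0.052.

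MiR-194-5p was the 1 member that differed among the 5 ages by the test of any difference, in plasma (adjusted p = 0.0374 from edgeR), beside 24 of 304 miRNAs (7.89%). Its lowest mean was at 8 months (460 ± 217 CPM, SD, n = 3) and its highest at 18 months (1775 ± 546 CPM, n = 2), with 564 ± 126 CPM at 2 months (n = 3), 821 ± 84.8 CPM at 12 months (n = 2) and 1011 ± 263 CPM at 6 months (n = 4). In this order, 12 months lay above 2 months and 18 months above 6 months without overlap, and the other neighbours overlapped. Counts were few: replicate 1 at 12 months (761 CPM) and replicate 1 at 6 months (1081 CPM) had 6 counts each. The step from 2 months (at most 698 CPM) to 12 months is therefore open to counting error. The value lay near the threshold: the adjusted p was above 0.05 when any of 9 of the 14 mice was left out, namely replicate 2 (0.0825) or 3 (0.0589) at 2 months, 3 at 6 months (0.0691), any of the 3 at 8 months (0.0568 to 0.0666), 2 at 12 months (0.0924) and either mouse of 18 months (0.209 and 0.0723). With DESeq2 it was 0.00493, and with miRNAs of low counts kept 0.146.

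In EVs, the test of any difference gave miR-194-5p an adjusted p of 0.292 with TMM and 0.0429 with RPM scaling, where 71 of 307 miRNAs passed in place of 1 (0.326%), and over all alternatives it ran from 0.0429 to 0.690. Its means there ran from 740 ± 243 CPM at 8 months (SD, n = 3) to 1788 ± 117 CPM at 18 months (n = 2), and only the step from 12 to 18 months was without overlap. Both libraries of 18 months lay above all 3 of 2 months for miR-192-5p and for miR-194-5p, in each fraction, a pattern that 10.4% of the miRNAs tested in EVs and 19.7% in plasma had. The other 5 members did not have it in either fraction.

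Other markers moved with these miRNAs, while the lymphocyte and red cell lists had a negative rho with both in each fraction. The lymphocyte list had a rho of -0.52 with miR-194-5p in EVs and -0.059 in plasma. The gut and kidney epithelium list averaged 3851 CPM in plasma at 2 months and 7029 CPM at 18 months, and its sum followed miR-194-5p over the 14 libraries with a rho of 0.750 in EVs and 0.758 in plasma, and miR-192-5p with 0.789 and 0.684. The list holds miR-215-5p, the seed relative of miR-192-5p, whose hairpin lies 195 bases from Mir194-1. MiR-215-5p averaged 3103 CPM in EVs and 2965 CPM in plasma, where the whole list had medians of 4250 and 4080 CPM. In plasma at 18 months it averaged 4941 CPM. The sum of this list is therefore not independent of miR-192-5p and miR-194-5p. The muscle and heart list followed miR-194-5p with 0.815 in EVs and 0.604 in plasma, and miR-192-5p with 0.622 and 0.508. The platelet list followed miR-192-5p with 0.763 and 0.618, and miR-194-5p with 0.622 and 0.385. For the pancreas list the values were 0.525 and 0.402 with miR-192-5p, and 0.393 and 0.288 with miR-194-5p. The part of these lists in the levels of miR-192-5p and miR-194-5p was not tested.

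**Figure D4:**
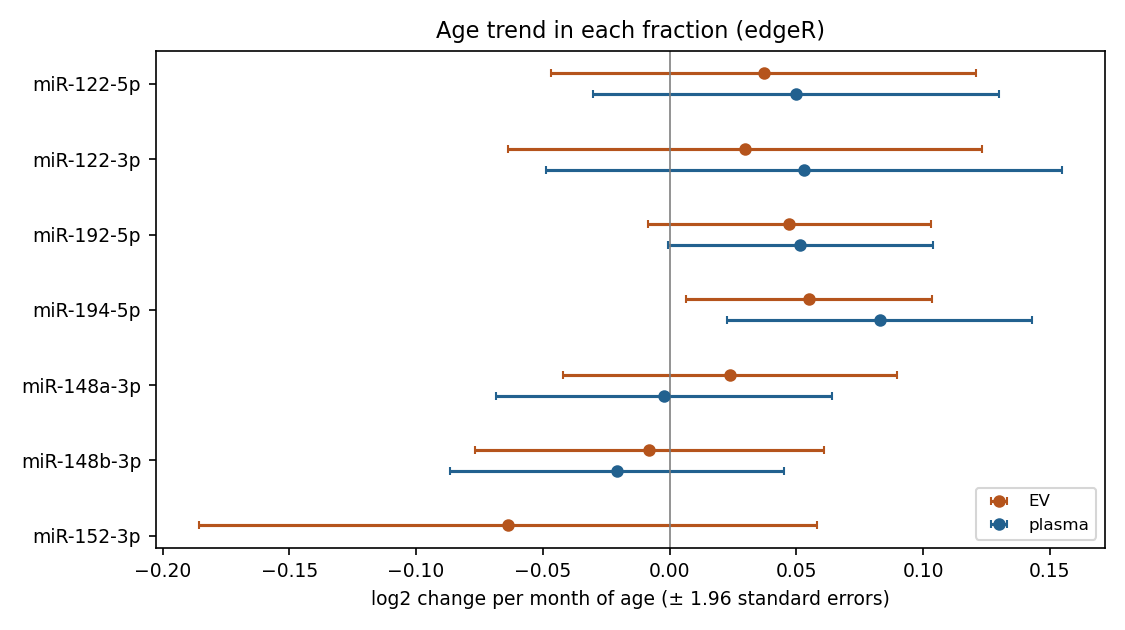
Log2 change per month of age from edgeR for the 7 members (points with 95% bars), in EVs (orange) and plasma (blue). MiR-152-3p was not tested in plasma, and the bars of miR-194-5p (0.055 and 0.083) lie above 0 although neither passed after adjustment over all miRNAs.

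Age was also correlated with RPM, with permutation tests (100000 resamples, two-sided) of both Spearman's rho and Pearson's r, adjusted over the 14 pairs of member and fraction. None of the 14 passed. Spearman coefficients lay between -0.196 and 0.337. The highest r was that of miR-194-5p, 0.596 in EVs (permutation p = 0.0247, adjusted p = 0.214) and 0.576 in plasma (permutation p = 0.0306, adjusted p = 0.214), and its rho was 0.299 and 0.292 (permutation p = 0.298 and 0.311, adjusted p = 0.783 for both). Leaving out both 18-month mice, the points farthest from the median of age, gave an r of 0.380 and 0.0534 (permutation p = 0.224 and 0.869), so the relation rests on those mice. No member passed the test for an age trend that differed between the fractions, in the fit without the block by mouse. There the interaction gave adjusted p = 0.998 for all 7 with edgeR. In that fit 0 of 333 miRNAs passed (11 at an unadjusted p under 0.05, 3.3%, and 0 with DESeq2). Of the 7, 2 had a positive interaction in it, beside 43.2% of all miRNAs. With the block, 0 of 333 miRNAs passed, and 2 of 329 did with the block and no uncertain pairs. The fit without the block ignores that both fractions came from the same mouse, and the oldest ages had few mice. It therefore cannot show that the trends were alike in the fractions.

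The miR-148 and miR-152 family was low in both fractions and showed no difference that passed a test. MiR-148a-3p averaged 412 ± 201 CPM in EVs and 473 ± 190 CPM in plasma (SD, n = 14), with 6 to 120 counts in an EV library and 0 to 50 in a plasma library. It ran from 149 to 754 CPM in EVs and from 0 to 722 CPM in plasma, where replicate 1 at 12 months, a library of 7380 miRNA counts, had no read. MiR-148b-3p averaged 258 ± 117 CPM in EVs, and its 14 libraries ran from 0 to 390.0 CPM. The lowest was replicate 3 at 6 months, with no read. MiR-152-3p had 0 to 41 counts in an EV library and 0 to 10 in a plasma library, too few to pass the filter on low values in plasma.

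The log2 fold changes of EVs over plasma were -0.22 for miR-148a-3p (standard error 0.25), -0.45 for miR-148b-3p (0.27) and -0.07 for miR-152-3p (0.43), with adjusted p = 0.599, 0.248 and 0.952 from edgeR, and RPM scaling made those of miR-148a-3p and miR-152-3p positive. MiR-148b-3p was higher in EVs in 3 of 14 mice, miR-148a-3p in 5 and miR-152-3p in 6. The 95% intervals of the fold reached from 0.612 to 1.21, from 0.510 to 1.05 and from 0.531 to 1.72. The age trends were 0.024, -0.0080 and -0.064 per month in EVs (standard errors 0.034, 0.035 and 0.062). In plasma they were -0.0022 and -0.021 for miR-148a-3p and miR-148b-3p (standard error 0.034 for each). All had adjusted p of at least 0.640 with edgeR, and RPM scaling made those of miR-148b-3p in EVs and of miR-148a-3p in plasma positive. MiR-148b-3p in plasma had its lowest mean at 6 months (209 ± 53.4 CPM, SD, n = 4), below both libraries of 12 months (289 and 380 CPM), but the test of any difference among ages gave an adjusted p of 0.532 with edgeR.

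Ratios between members within a library do not depend on its scaling. Of 6 ratios compared between the fractions by exact sign changes over the 14 mice (two-sided, 16384 sign patterns, adjusted over the 6), none passed 0.05. The log2 ratio of miR-122-5p over miR-192-5p averaged -0.25 ± 0.82 in EVs and 0.11 ± 0.74 in plasma (SD, n = 14). It was lower in EVs in 12 of 14 mice, by 0.36 ± 0.46 on average (exact p = 0.0125, adjusted p = 0.0747). In EVs the ratio itself ran from 0.341 to 2.08 and in plasma from 0.453 to 2.65, with both mice of 12 months and replicate 3 at 8 months among the lowest in each.

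The log2 ratio of miR-192-5p over miR-148a-3p averaged 3.59 ± 0.55 in EVs and 2.96 ± 1.02 in plasma (SD, n = 14), a difference of 0.64 ± 1.05, higher in EVs in 11 of 14 mice (exact p = 0.0410, adjusted p = 0.123). Adding 1 in place of 0.5 to each count brought both of these ratios to an adjusted p of 0.0366 by the same exact test. Single mice decide these calls too: without replicate 3 at 6 months or replicate 1 at 8 months the first had an adjusted p of 0.0396 and 0.0132, and without replicate 1 at 12 months, whose plasma had no read of miR-148a-3p, the second had 0.0117, each by the exact test. Over all alternatives the adjusted p ran from 0.0132 to 0.631 and from 0.0117 to 0.289. The ratio of miR-192-5p over miR-194-5p, which share a primary transcript, had a mean log2 of 2.02 ± 0.27 in EVs and 2.11 ± 0.64 in plasma, and differed by -0.09 ± 0.50 between them (SD, n = 14, exact p = 0.530, adjusted p = 0.530). None of 12 correlations of these ratios with age passed. The strongest by rho was miR-192-5p over miR-148a-3p in plasma (rho 0.580, permutation p = 0.033, adjusted p = 0.396). Without the 18-month mice, the rho of miR-122-5p over miR-192-5p in plasma was -0.730 in place of -0.267 (permutation p = 0.00852, adjusted p = 0.102).

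**Figure D5:**
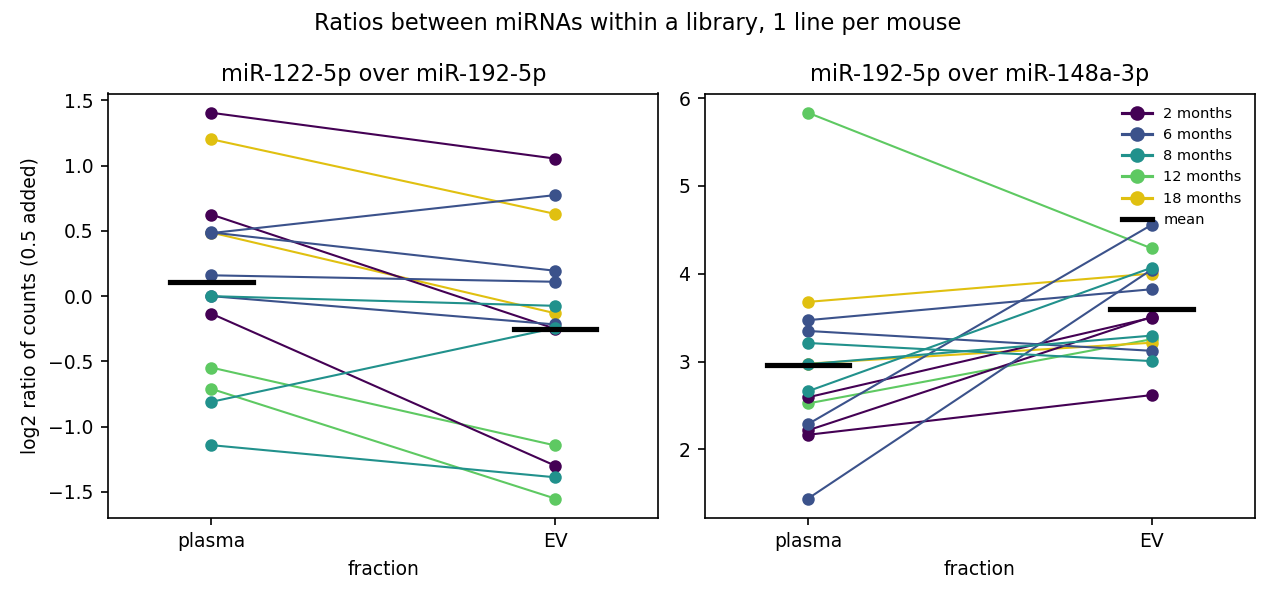
Log2 ratio of counts (0.5 added to each) of miR-122-5p over miR-192-5p (left) and of miR-192-5p over miR-148a-3p (right) in plasma and EV libraries, 1 line per mouse coloured by age, with black bars at the means. The left ratio was lower in EVs in 12 of 14 mice and the right ratio higher in 11 of 14, and the highest plasma point on the right is a library with no read of miR-148a-3p.

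Other arms and seed relatives were looked at as a list of 8, of which 4 were tested between the fractions, 4 with age in EVs and 1 with age in plasma. MiR-215-5p, the paralogue of miR-192-5p, differed by 0.06 on the log2 scale between the fractions (standard error 0.16, adjusted p = 0.845 from edgeR) and was higher in EVs in 7 of 14 mice. Its age trend was 0.066 per month in EVs and 0.051 in plasma (standard errors 0.024 and 0.022, adjusted p = 0.232 and 0.272). MiR-215-3p, its passenger strand, had 3 to 27 counts in an EV library and 0 to 8 in a plasma library, and reached 1 RPM in 8 EV libraries and 1 plasma library. It entered the test through EVs alone, the fraction where it was higher, so its log2 value of 1.14 (standard error 0.32, adjusted p = 0.0101 from edgeR) is given as a description. MiR-192-3p (0.63, adjusted p = 0.242) and miR-148b-5p (0.22, adjusted p = 0.790) also entered through EVs alone.

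Of 12 other miRNAs known from liver, 10 were tested between the fractions and 1 passed, miR-22-3p, which was higher in EVs by 0.62 (standard error 0.14, adjusted p = 0.00204 from edgeR). This is 1 of 10 beside 18.3% of all miRNAs tested, or 8.11% higher in EVs. MiR-802-5p, which is enriched in liver and has roles in insulin sensitivity, had 0.13 (standard error 0.32, adjusted p = 0.833). None of the 9 tested in EVs and the 10 tested in plasma passed for an age trend. The smallest adjusted p in EVs was that of miR-21a-5p (0.140, 0.061 per month), which in plasma had 0.049 per month and, with miR-455-3p, the smallest adjusted p there (0.176). By the test of any difference among ages in plasma, 1 of the 10 passed, miR-455-3p (adjusted p = 0.00694 from edgeR), beside 7.89% of all miRNAs tested.

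Likeness to a member was Spearman's rho of CPM over the 14 libraries of a fraction, among 227 other miRNAs in EVs and 175 in plasma. In EVs miR-122-5p was most like miR-122-3p (0.851), miR-802-5p (0.675) and miR-141-3p (0.670), with a median over all others of -0.0769. In plasma it was most like miR-192-5p (0.807), miR-32-5p (0.714) and miR-215-5p (0.705), with miR-122-3p at place 4 (0.697). MiR-192-5p was ninth in place by likeness to miR-122-5p in EVs, with a rho of 0.481.

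MiR-192-5p was most like miR-126a-5p (0.851), miR-143-3p (0.842) and miR-145a-3p (0.824) in EVs, and like miR-215-5p (0.916), miR-29c-3p (0.842) and miR-122-5p (0.807) in plasma. MiR-194-5p was most like miR-145a-3p (0.855), miR-99b-5p (0.842) and miR-192-5p (0.815) in EVs, and miR-29b-3p (0.793), miR-29c-3p (0.745) and miR-342-3p (0.736) in plasma. MiR-122-3p was most like miR-122-5p (0.851), miR-141-3p (0.719) and miR-194-5p (0.71) in EVs, and miR-378a-3p (0.807), miR-192-5p (0.789) and miR-574-3p (0.714) in plasma.

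MiR-148a-3p was most like miR-30a-5p (0.767), miR-125a-5p (0.754) and miR-342-3p (0.728) in EVs, and miR-26a-5p (0.842), miR-27b-3p (0.543) and miR-7a-5p (0.539) in plasma. MiR-148b-3p was most like miR-374b-5p (0.754), miR-140-3p (0.705) and miR-486b-3p (0.644) in EVs, and miR-144-5p (0.754), miR-374b-5p (0.732) and miR-106b-5p (0.697) in plasma, so that miR-374b-5p was near it in both. MiR-148a-3p and miR-148b-3p, which share a seed, had a rho of -0.152 with each other in EVs. Points of such a correlation share a library and its scaling, and no test was made.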

How the data were processed

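Small RNA was sequenced from 14 EV and 14 plasma libraries. Estimated counts of each RNA without normalization were deposited by the authors, beside a signal in RPM that is the same counts over 1 number per library, which no source used here explains. The submitters' processing notes name mm10 and R 4.0.4, and an aligner for these libraries was not named in them. Estimated counts were rounded and tested with edgeR 4.0.16 (TMM over miRNAs, quasi-likelihood, R 4.3.3) on miRNAs that reached 1 RPM in 2 of 14 libraries of a fraction or more (over 10%), with Benjamini-Hochberg adjustment over all of them and a threshold of 0.05. Intervals of 95% for folds and slopes use the normal approximation. DESeq2 was the other count tool. Other alternatives were scaling, filters, codings of age, leaving out each mouse, and the block by mouse. EV and plasma libraries pair because the labels give both to 1 animal, except for replicates 2 and 3 at 2 months, whose plasma labels are joined. The correlation of their deviations from the age means within a mouse was -0.0278 to 0.410 over 278 miRNAs. The closest replicates differed beyond counting noise (chi-square over its degrees of freedom 3.82), and that libraries come from different mice rests on the labels. The count tests were also run on simulated counts, drawn for each library apart with no effect of a mouse. That run cannot show how fits without the block treat paired libraries. Sequences and positions come from RefSeq (GRCm38.p6) and GENCODE M21. Besides the 7 members, lists of 8 other arms and seed relatives, 12 other miRNAs of liver and 6 sets of markers were examined, given as counts with examples, and the 3 miRNAs most like each member were named where both averaged at least 10 counts. Members and lists were chosen with earlier results of these data known.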

Additional observations from a re-analysis of the deposited data

Results flagged for a closer look

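In the 6-month groups, the only ones with 4 libraries, the highest or lowest value of each member was compared with the others by Dixon's criterion (14 groups, of which chance singles out about 1 in 20). The EV library of replicate 4 stood apart for 2 members. MiR-192-5p was at 105 RPM there, with the next library at 19.8 and the lowest at 13.5 RPM, a gap of 0.931 of the range and above the 95% critical value. MiR-152-3p was at 2.79 RPM, from 25 counts, with the next at 0.153 RPM and 1 library at 0 (0.945 of the range). With TMM scaling both stood apart as well (10755 CPM against 3734, and 286 CPM against 42.4). In plasma of the same mouse miR-192-5p was at 52.2 RPM, also the highest of its group.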

How the results depend on the processing

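MiR-122-3p, miR-148a-3p, miR-148b-3p and miR-152-3p each had at least 1 library with no read, and each age had 2 to 4 mice. In plasma, miR-194-5p went down to 6 counts and miR-122-5p and miR-192-5p to 9. Of the members, miR-192-5p and miR-194-5p kept a positive fold change between the fractions and a positive age trend in both fractions under every alternative run, though without the 18-month mice the slopes of miR-194-5p were 0.012 in EVs and 0.023 in plasma in place of 0.055 and 0.083. Age trends called in EVs numbered 1 and became 2 with DESeq2, 0 with RPM scaling, 7 without a filter on low counts, 0 with a minimum of 10 counts, 3 without the 18-month mice, 5 with log2 of age and 0 to 8 with each mouse left out (8 without replicate 4 of 6 months, 3 without replicate 1 of 12 or of 18 months, 2 without replicate 2 of 2 months, and 0 without replicate 1 or 3 of 2 months). In plasma they numbered 0 and became 2 with DESeq2, 7 without a filter, 8 without the 18-month mice and 0 to 4 with each mouse left out (4 without replicate 4 of 6 months, 3 without replicate 1 of 18 months). Differences among ages in EVs numbered 1 and became 11 with DESeq2, 71 with RPM scaling, 19 without a filter, 0 with a minimum of 10 counts and 0 to 3 with each mouse left out (3 without replicate 4 of 6 months). In plasma they numbered 24, became 32 with DESeq2, 35 without a filter, 17 with RPM scaling and 16 with a minimum of 10 counts, and ranged from 7 to 29 with each mouse left out (7 without replicate 2 of 12 months, 10 without replicate 1 of 18 months, 13 without replicate 2 of 2 months or 3 of 8 months). Interactions numbered 0 and became 1 without a filter, 1 without the 18-month mice and 2 with the replicate block without uncertain pairs. Without a filter, 1556 miRNAs were tested with age in EVs, 1498 in plasma and 1733 for the interaction. Ratios that differed between fractions numbered 0 and became 2 with 1 added to counts and 0 to 1 with each mouse left out. The replicate block by mouse moved the count between the fractions from 61 to 88, and beyond miR-192-5p and miR-194-5p it changed no call of a member. Sign changes were all of values that passed no test. Between the fractions miR-122-5p (-0.01) became 0.090 with DESeq2, 0.076 with its size factors, 0.13 with RPM scaling, 0.011 with scaling to miRNA reads, 0.13 without a filter, 0.14 without the 18-month mice, 0.024 and 0.056 with the block (all pairs, and no uncertain pairs) and -0.11 to 0.074 with each mouse left out. MiR-148a-3p became 0.13 with RPM scaling. MiR-152-3p became 0.34 with RPM scaling, 0.11 without a filter, 0.13 without the 18-month mice and -0.25 to 0.11 with each mouse left out. Age trends per month turned without the 18-month mice in EVs for miR-122-5p (-0.12), miR-122-3p (-0.052) and miR-148a-3p (-0.011), and in plasma for miR-122-5p (-0.13) and miR-122-3p (-0.049). That of miR-148b-3p in EVs became 0.033 with RPM scaling and 0.0012 without a filter, and that of miR-148a-3p in plasma 0.012 with RPM scaling. With each mouse left out they ran from -0.028 to 0.065 and from -0.020 to 0.094 for miR-122-5p in EVs and plasma, from -0.0042 to 0.047 for miR-122-3p in EVs, from -0.014 to 0.0075 for miR-148a-3p in plasma and from -0.029 to 0.0010 for miR-148b-3p in EVs. The Spearman coefficient with age turned without the 18-month mice for miR-122-5p in EVs (-0.0869) and plasma (-0.297) and for miR-194-5p in plasma (-0.0796), ran from -0.116 to 0.270 for miR-122-5p in plasma with each mouse left out, and from -0.0844 to 0.231 for the ratio of miR-192-5p over miR-148a-3p in EVs. The cause of these changes was not tested. MiR-152-3p has no value with a minimum of 10 counts, and no EV library had under 2000000 counts.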
